A study of Rattus norvegicus with 4 samples.

Results

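The day 2 comparison set the heart of rats after myocardial infarction (MI) against the heart of sham-operated rats, on 2 of the 4 arrays of the series. Its members were the samples whose titles name day 2, and all 348 probes with a rat microRNA (miRNA) name were used. The study's title concerns miR-31 in ischemic heart disease, and the comparison asks which miRNAs differ early after the injury.

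Both groups were male Wistar rats with no genetic change named. The sham group had the chest opened from the side and the pericardium cut, and the MI group had the same operation plus ligation of the left anterior descending (LAD) coronary artery, per the treatment labels. The protocol text on both samples describes the sham operation only. Hearts were taken on day 2, and each array held RNA pooled from 3 rats of 1 group, so a group is 1 sample and no test between groups was possible. The labels do not say which region of the heart was taken. The array was a miRCURY LNA array, with probes holding locked nucleic acid bases that bind short RNAs tightly, and each received 1000 ng of Hy3-labelled total RNA. Each probe was used as 3 spots, those of blocks 1 to 36. Spots in blocks 37 to 48 of the sham array lay 1.15 below the other spots of the same probe on the log2 scale and were left out.

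A miRNA is a short RNA, cut from one arm of a hairpin precursor, that represses messenger RNAs by pairing to them mainly through its seed, bases 2 to 8. miRNAs that share a seed can repress the same targets, and many are made in 1 cell type, so their level in a whole organ follows the cells it holds. After a coronary artery is closed, neutrophils and then macrophages enter the dying muscle, and fibroblasts later build a scar. In RNA of a whole heart, a change in the number of cells of a type and a change in RNA per cell cannot be told apart.

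The sequences shown are those of the highest and lowest miRNAs at day 2 and of partners that share their seed, hairpin or cluster, as RefSeq gives them on the rat build GRCr8, with the seed in capitals. Of the 198 miRNAs detected on at least 1 array, 157 matched a mature RefSeq sequence, and miR-347 and miR-150 are given by name only.
miR-223: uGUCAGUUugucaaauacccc
miR-142-3p: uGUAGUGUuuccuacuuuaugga
miR-142-5p: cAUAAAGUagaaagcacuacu
miR-21: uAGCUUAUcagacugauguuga
miR-21*: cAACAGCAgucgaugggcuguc
miR-31: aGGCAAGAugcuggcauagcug
miR-222: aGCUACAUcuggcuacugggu
miR-221: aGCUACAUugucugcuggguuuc
miR-193: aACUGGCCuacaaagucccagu
miR-336: uCACCCUUccauaucuagucu
miR-99b*: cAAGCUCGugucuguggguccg
miR-144: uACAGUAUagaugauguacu
miR-451: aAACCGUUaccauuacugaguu
miR-32: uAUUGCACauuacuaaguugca
miR-25: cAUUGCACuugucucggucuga
The pair miR-221 and miR-222 share the seed GCUACAU and differ after it, and miR-32 and miR-25 share AUUGCAC. The other sequences each have a seed of their own. The mature miR-223 lies at chrX:65151450-65151470 on the plus strand and miR-31 at chr5:108714906-108714927 on the minus strand. The arms of miR-142 lie at chr10:73055119-73055139 and chr10:73055155-73055177 on the plus strand, and miR-21 lies at chr10:71902653-71902674 on the minus strand.

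The label of heart tissue fits the markers. The heart muscle miRNAs miR-1, miR-133a and miR-208 were at the scanner's 16-bit intensity limit on all 3 sham spots, and miR-133b and miR-499 were detected on both arrays. The epithelial miRNAs miR-200a, miR-200b, miR-200c, miR-141, miR-429 and miR-205, the neuronal miR-124 and the pancreatic miR-216a and miR-217 were detected on neither array. Neuronal miR-9 and miR-128, epithelial miR-203 and skeletal muscle miR-206, which is close to miR-1 in sequence, were detected on both, with log2 differences (MI minus sham) between -0.46 and -0.10. Liver miR-122 and pancreatic miR-375 were detected on 1 array and had no fold.

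The arrays differed in background. The median spot foreground was 296 intensity units in sham and 183 in MI, and the median local background was 307 and 136. Detection of a spot required a foreground more than 2 background SDs over its local background, and detection of a probe required this of 50% of its spots or more. By this rule 166 rat miRNAs were detected in sham and 196 in MI, of which 164 were on both arrays, 2 in sham only and 32 in MI only. Of 21 negative control spots, 0 passed this rule in sham and 2 did in MI. The part of background in the greater number detected in MI was not tested. The scan of the sham array names an image with a mouse prefix, although the labels say rat. Probes with a rat but no mouse or human name were detected 12 times in sham and 15 times in MI of 42 (28.6% and 35.7%). Probes with only a mouse name were detected 63 and 83 times of 234 (26.9% and 35.5%). Because these shares are alike, they cannot tell the species of a sample.

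**Figure D1:**
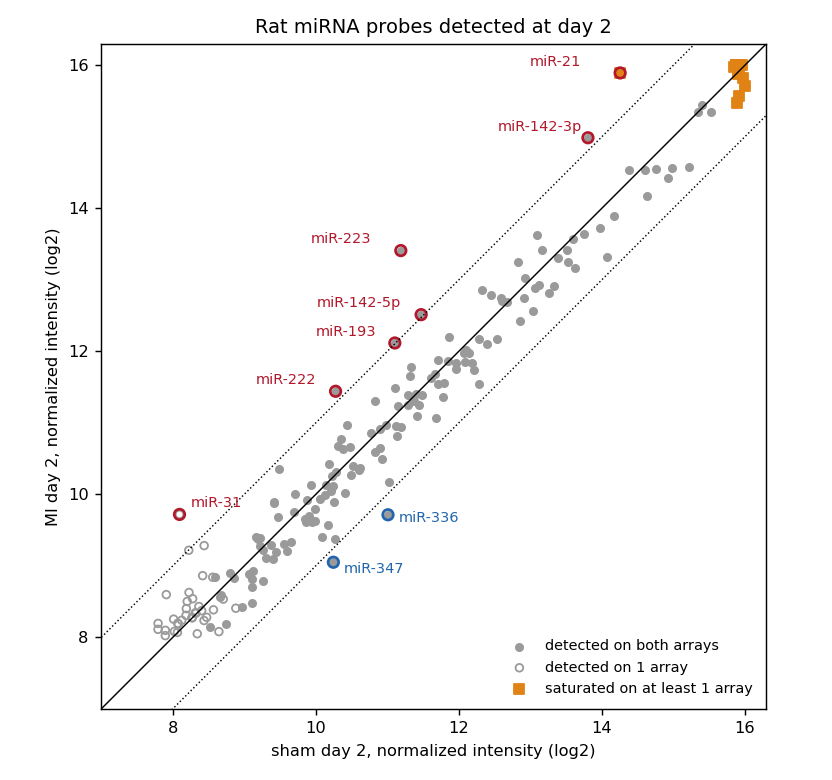
Normalized log2 intensity of each detected rat miRNA in sham (horizontal) and MI (vertical) at day 2, each point the mean of 3 spots. The solid line marks equal levels and the dotted lines 2-fold. The 7 higher miRNAs lie above the upper dotted line, miR-31 among them at a sham level below detection, and 2 lie below the lower one.

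At day 2, 7 miRNAs were higher in the infarcted than in the sham hearts by 2-fold or more: miR-223 and both arms of miR-142, which leukocytes make, the injury-induced miR-21 and miR-31, and miR-222 and miR-193. miR-336 and miR-347 were lower by 2-fold or more. The 7 higher ones are 4.27% of the 164 rat miRNAs with a fold or a bound, the 2 lower ones are 1.22%, and together they are 5.49%. The other 155 did not pass 2-fold, some of them with a bound only. A bound stands in for a fold where one array did not detect the miRNA or reached the limit. Where it was not detected, the difference under the same processing is at least as large as the bound. At the limit this is not certain, because normalized levels of spots at the limit follow their rank. For miR-133a, at the limit on 3 sham and 0 MI spots, the normalized means were 15.90 in sham and 15.92 in MI. Either kind of bound moved with the processing. The difference carries a standard error over spots (spot SE), which covers the spread within the arrays and leaves out that between rats and between arrays. The split of calls moved with the scaling of the arrays, from 7 higher and 2 lower after quantile normalization to 4 and 5 with arrays centred on their detected rat probes and to 2 and 10 without normalization. With arrays shifted by spike-in controls, the miRNAs past 2-fold were the same except that miR-193 did not pass.

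miR-223, a miRNA of neutrophils and other myeloid cells, had the largest difference of those measured on both arrays. Its foreground intensities were 2667, 2523 and 2848 on the sham spots and 8093, 8551 and 11197 on the MI spots. Every MI spot was above every sham spot. After normalization its log2 level was 11.19 in sham and 13.41 in MI, a difference of 2.22 (spot SE 0.17) or 4.66-fold. It was past 2-fold in all 16 alternative settings, with values from 1.81 to 2.32.

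The arms of the miR-142 hairpin, which is transcribed in blood cells, lay close together. The foreground of miR-142-3p was 17658, 17668 and 17153 in sham and 29007.5, 26575 and 30272 in MI. That of miR-142-5p was 3078, 3295 and 3243.5 in sham and 4705.5, 4586.5 and 5912 in MI. For either arm, every MI spot was above every sham spot. miR-142-3p had levels of 13.81 and 14.99 and was 2.27-fold higher in MI (difference 1.18, spot SE 0.06), and miR-142-5p had levels of 11.47 and 12.51 and was 2.06-fold higher (1.04, spot SE 0.13). The 5p arm passed 2-fold in 10 of 16 settings and lay between 0.67 and 1.16 over them. The 3p arm passed in 14, with 0.71 without normalization and 0.96 with centred arrays.

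miR-150, made in mature lymphocytes, was the member of the leukocyte list that did not pass. It read 3618, 4970.5 and 4495.5 in sham and 3160, 4257 and 4772 in MI, and these spots overlapped. Its difference of 0.33 (spot SE 0.22) turned to -0.10 without normalization and was 1.18 in the authors' value table. Of the 4 leukocyte miRNAs, 3 were at least 2-fold higher, against 4.27% of all rat miRNAs with a value, and none was lower. Their median was 1.11, against -0.12 over the 147 rat miRNAs measured on both arrays. All 4 lay above the median of all in each of the 16 alternatives, which process the same 2 arrays again. The list was chosen with earlier results of these data known.

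miR-21, which is known to be induced in the injured heart, reached the scanner limit after infarction. Its foreground was 25829, 19488 and 27266 in sham and 43439.5 on 1 MI spot, the other 2 being at the limit. Every MI spot was above every sham spot. Because of the limit, its levels of 14.26 and 15.89 give a bound of 3.11-fold higher in MI (1.64). Values from 1.12 to 1.70 were obtained over the 16 settings, all past 2-fold. The other arm of the hairpin, miR-21*, read 1307.5, 1302 and 1182 in sham and 810.5, 890.5 and 823 in MI. After normalization the spots of miR-21* overlapped, with a difference of -0.12 (spot SE 0.08).

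miR-31, the miRNA of the study's title, is known to be induced in inflamed tissue. It was detected in MI only: its foreground was between 364 and 411 in sham, where the median local background of the array was 307, and 739, 776 and 752 over local backgrounds of 196, 163 and 132 in MI. The MI spots lay well above those of sham, which did not pass the detection rule. Against the lowest detected sham level the difference is at least 1.27 (at least 2.41-fold), with a level of 9.72 in MI. The bound was 0.87 without normalization and past 2-fold in the other 15 settings.

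Among the other miRNAs of the injury and inflammation list, miR-146a and miR-146b, which NF-kB induces, were at 0.11 (spot SE 0.07) and 0.54 (spot SE 0.10). The first read 9042, 9342 and 9601 in sham and 6534, 7007.5 and 7494 in MI, the second 6456, 5695 and 6221 in sham and 6254, 5836 and 6958 in MI. After normalization the spots of miR-146b did not overlap and those of miR-146a did. miR-147, which is induced in mouse macrophages by Toll-like receptors, was detected in MI only, with a bound of 0.77. miR-212 was detected on 1 array and had no fold, and miR-132, of the same cluster, was not detected. Of the 7 list members on the array, 5 had a value, and 3 of these values were bounds. At least 2-fold higher were 2, against 4.27% of all rat miRNAs with a value, and none was lower. The median of 0.77, against -0.12 for all, is the bound of miR-147. A miRNA detected in MI only was given a value only when its bound was above 0. miR-146a turned below 0 in 3 of 16 settings, to -0.41 without normalization.

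miR-221 and miR-222, made from one transcript on chromosome X and known in rat vascular smooth muscle to promote proliferation, had differences of 0.88 (spot SE 0.15) and 1.16 (spot SE 0.12). miR-222 read 1594, 1383 and 1506.5 in sham and 2326, 2474.5 and 2830 in MI, and miR-221 read 966.5, 803 and 853.5 in sham and 1064.5, 1038 and 1424.5 in MI. For both, the lowest MI spot was above the highest sham spot, before and after normalization. miR-222 was 2.24-fold higher and miR-221, at 1.84-fold, was the highest of the miRNAs measured on both arrays that did not pass 2-fold. Without normalization the values were 0.79 for miR-222 and 0.49 for miR-221.

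miR-193, whose RefSeq arm is miR-193a-3p, lay just past the threshold. It read 2638, 2527.5 and 2333 in sham and 3624, 3911 and 3911.5 in MI, with no overlap. Its levels of 11.11 and 12.12 give 2.02-fold (1.01, spot SE 0.09). Over the settings it ran from 0.62 without normalization to 2.13 in the authors' value table, past 2-fold in 11 of 16. miR-365, which was listed with it, was at 0.03 (spot SE 0.11), with levels of 10.28 and 10.31.

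**Figure D2:**
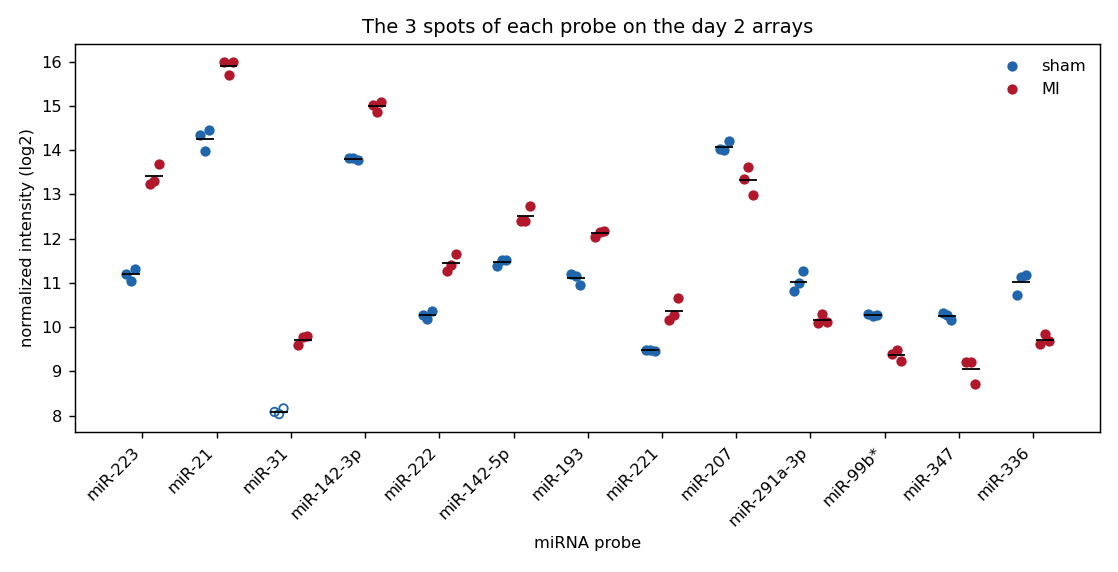
Normalized log2 intensity of the 3 spots of 13 miRNA probes in sham (blue) and MI (red), with black bars for means and open points where the probe was not detected. The spots of the arrays do not overlap for any of these probes, which were chosen from the ends of the range. The highest MI spots are those of miR-21, at the scanner limit.

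On the lower side, miR-336 read 2102, 2531.5 and 2569 in sham and 746, 777.5 and 700.5 in MI. Each MI spot was below each sham spot, and the levels of 11.01 and 9.71 give 2.46-fold lower (-1.30, spot SE 0.15). miR-347 read 1502, 1435.5 and 1365 in sham and 513, 512 and 354 in MI. It was 2.29-fold lower (-1.20, spot SE 0.17), again with no overlap. miR-336 was past 2-fold lower in all 16 settings (from -2.69 to -1.16), and miR-347 in 14, with -0.74 over all 48 blocks and -0.63 in the authors' value table. No role in heart tissue is stated here for either.

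The next lowest were miR-99b* (-0.90, spot SE 0.08), miR-291a-3p (-0.85), miR-207 (-0.76), miR-138* (-0.73), miR-196a* (-0.68), miR-451 (-0.64), miR-434 (-0.63) and miR-184 (-0.62). miR-99b* read 1472, 1416.5 and 1474 in sham and 592, 698 and 523.5 in MI, with no overlap, and miR-207 read 20197, 19902 and 22434 in sham and 8607, 10505 and 6800 in MI. For each of these 8, no MI spot reached the lowest sham spot, but they were picked from the low end of these differences. Of all 147 miRNAs measured on both arrays, the spots did not overlap for 38 (25.9%) lower in MI and 21 (14.3%) higher. On the upper side, miR-221 was followed by miR-144 (0.54), miR-32 (0.54), miR-146b (0.54) and miR-10a-5p (0.49), all without overlap after normalization. Without normalization miR-144, miR-146b and miR-10a-5p were at 0.03, 0.06 and 0.10. The lowest value of miR-32 over the settings was 0.10. In the authors' value table miR-10a-5p was at 2.21 and miR-99b* at -2.01.

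Among miRNAs detected on 1 array, the largest bounds after miR-31 were miR-466b (0.84), miR-147 (0.77), miR-130b (0.41) and miR-338* (0.28), all brighter in MI. miR-181c (-0.57) and miR-376b-3p (-0.47) were detected in sham only. In all, 11 had a bound and 23 had no fold. miR-466b and miR-147 read 379, 428.5 and 534, and 411, 406 and 375.5, on the sham spots, near the sham background.

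The whole distribution was narrow. Of the 147 rat miRNAs measured on both arrays, 52 lay above 0 and 95 below, with a median of -0.12, quartiles of -0.32 and 0.10, and the 5th and 95th percentiles at -0.63 and 0.54. For 124 of them (84.4%) the difference was under 0.5 in size, and the median spot SE was 0.13. The 3 spots of MI lay above all those of sham for 21 (14.3%) and below for 38 (25.9%). Medians for 4 ranges of level ran from -0.20 to -0.10. Scaling moved the median of all, to -0.56 without normalization, -0.32 with centred arrays and 0.083 with all 48 blocks, and values near 0 have a direction only relative to it.

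The brightest miRNAs could not be compared. In sham 16 and in MI 10 rat miRNAs had 50% or more of their spots at the limit, 17 in all. The heart muscle miRNAs miR-1, miR-133a and miR-208, the endothelial miR-126, the smooth muscle miR-143, miR-22, miR-26b, miR-29a, miR-30a, miR-30b-5p and miR-30c had no fold. miR-133a was below the limit on its 3 MI spots, but its normalized sham mean was not above its MI mean. A saturated sham level gave bounds for miR-24 (-0.43), let-7a (-0.34), miR-125b-5p (-0.29), let-7f (-0.16) and miR-26a (-0.02). These bounds moved with the setting: miR-24 reached -0.20, miR-125b-5p -0.14 and let-7f -0.07, and miR-26a had a bound in 11 and let-7f in 13 of 16 settings.

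Among the heart muscle miRNAs with a value, miR-133b read 15913, 18488.5 and 15590.5 in sham and 8578, 10989 and 12525 in MI, and miR-499, encoded in a myosin heavy chain gene, read 20464, 22585 and 22956.5 in sham and 11040, 12328.5 and 14829.5 in MI. Raw intensities were lower on each MI spot, as was the median foreground of the array. After normalization the differences were -0.12 (spot SE 0.19) and -0.29 (spot SE 0.14), with overlapping spots, and both were above 0 in 2 of 16 settings. Endothelial miR-126* was at -0.46 (spot SE 0.13) and smooth muscle miR-145 at -0.16. The fibroblast cluster was near the median of all, with miR-199a-5p at -0.18, miR-199a-3p at -0.10 and miR-214 at 0.17. Hypoxia-induced miR-210 passed the detection rule on neither array, at 301, 266 and 262 in sham and 209, 208 and 204 in MI.

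The erythroid miRNAs miR-144 and miR-451, made from one transcript on chromosome 10, lay on opposite sides. miR-144 read 9516, 10551 and 11455 in sham and 9907, 10699 and 11406 in MI. miR-451 read 42117, 44799.5 and 44142 in sham and 16585, 21955.5 and 25019.5 in MI. After normalization neither pair of spots overlapped, and the differences were 0.54 (spot SE 0.10) and -0.64 (spot SE 0.14). miR-144 was above 0 in all 16 settings, but only at 0.03 without normalization. miR-451 was above 0 in 2 of them, reaching 0.17 with all 48 blocks. Of 26 groups of miRNAs within 10 kb on the genome that hold more than 1 hairpin, this pair had the widest spread, 1.18, against a median of 0.32.

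**Figure D3:**
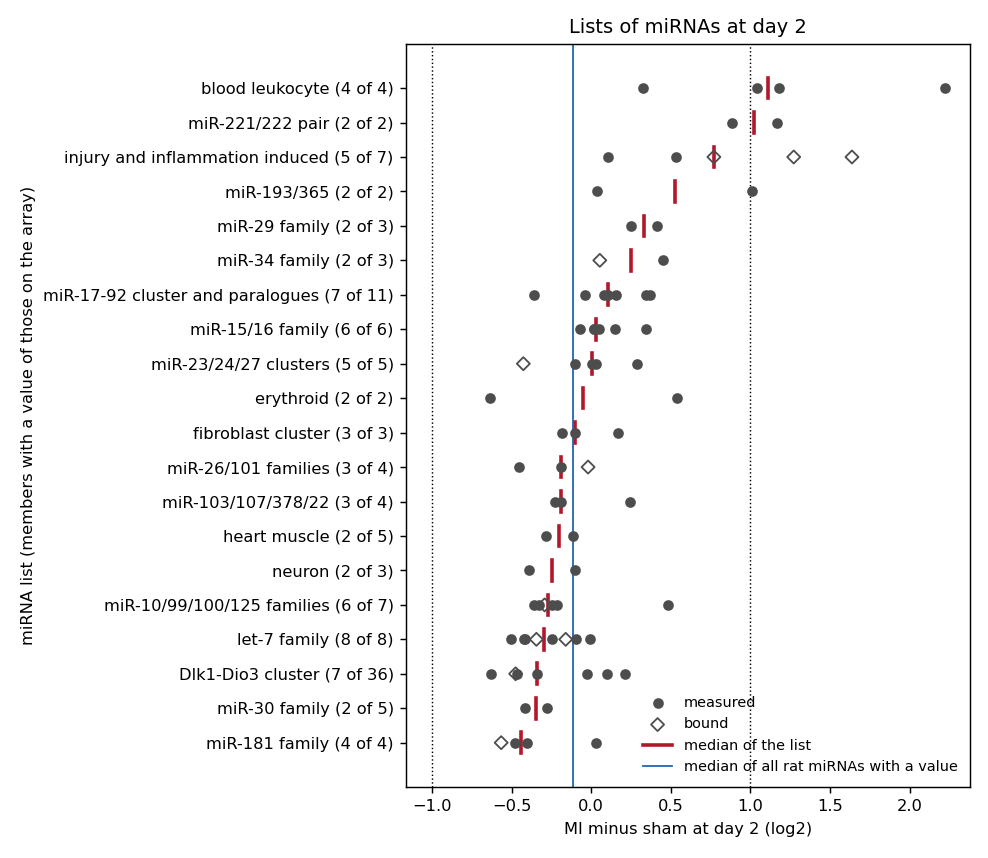
Log2 difference (MI minus sham) of each member with a value in 20 lists of miRNAs, with filled points measured and open diamonds bounds. Red bars are list medians, the blue line is the median of all rat miRNAs with a value, and dotted lines mark 2-fold. The list of leukocyte miRNAs, the pair of miR-221 and miR-222, and the injury list have the highest medians, 1.11, 1.02 and 0.77, the last being a bound.

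In 16 seed families with 42 measured members, the median range within a family was 0.34, and 14 families spanned under 0.5. Among all 147 miRNAs measured on both arrays the quartiles also lay within 0.5 of each other. Whether a shared seed brings values together was not tested. The let-7 family, known for promoting differentiation, had all 8 members below 0, from let-7c at -0.50 (spot SE 0.18) to miR-98 at -0.01. Among the 8, let-7a and let-7f were saturated in sham, and such a bound was given only when below 0. Their direction therefore adds nothing to the count. Of the 8, 6 lay below the median of all, the 2 bounds included. This count was 5 to 8, of 7 or 8 members with a value, over the 16 settings. Of the miR-181 family miR-181a, miR-181d and the bound of miR-181c were at -0.48, -0.41 and -0.57, and miR-181b was at 0.03. miR-101a and miR-101b, with the seed ACAGUAC, were at -0.45 and -0.19. None of these passed 2-fold in the main setting. Of the 16 families, 11 had a median above that of all. Besides miR-221 and miR-222, examples were miR-29b and miR-29c (0.42 and 0.25), miR-19a and miR-19b (0.34 and 0.08), and miR-17, miR-20a, miR-106b and miR-93 (from 0.37 to -0.04). miR-15b was at 0.35 and miR-16, made from the same transcript, at 0.15. The widest family was that of miR-32 and miR-25, at 0.54 and -0.36, whose sequences match in the seed and differ outside it.

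The 120 measured miRNAs with a RefSeq sequence were grouped by base composition. Their median difference was 0.03 where under 40% of bases were G or C (25 miRNAs). It was -0.12 from 40% to under 50% (46) and -0.18 from 50% (49). Over the 120, the Spearman correlation of the difference with the share of G and C was weak, at -0.14. The arms of 1 hairpin could be compared in 15 pairs, of which 10 lay on the same side of 0, with a median gap of 0.21. Since 95 of the 147 miRNAs measured on both arrays lay below 0, unrelated miRNAs would often share a side too. Whether arms do so more often was not tested. The values of miR-21, miR-24 and miR-338* are bounds, whose side of 0 was set by rule. The exceptions were miR-21, miR-29c, miR-872 and both precursors of miR-24. The gap of the miR-99b arms was 0.65, from -0.25 to -0.90. Of the Dlk1-Dio3 cluster, an imprinted locus with 36 members on the array, 7 had a value, with a median of -0.34 and none past 2-fold.

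**Figure D4:**
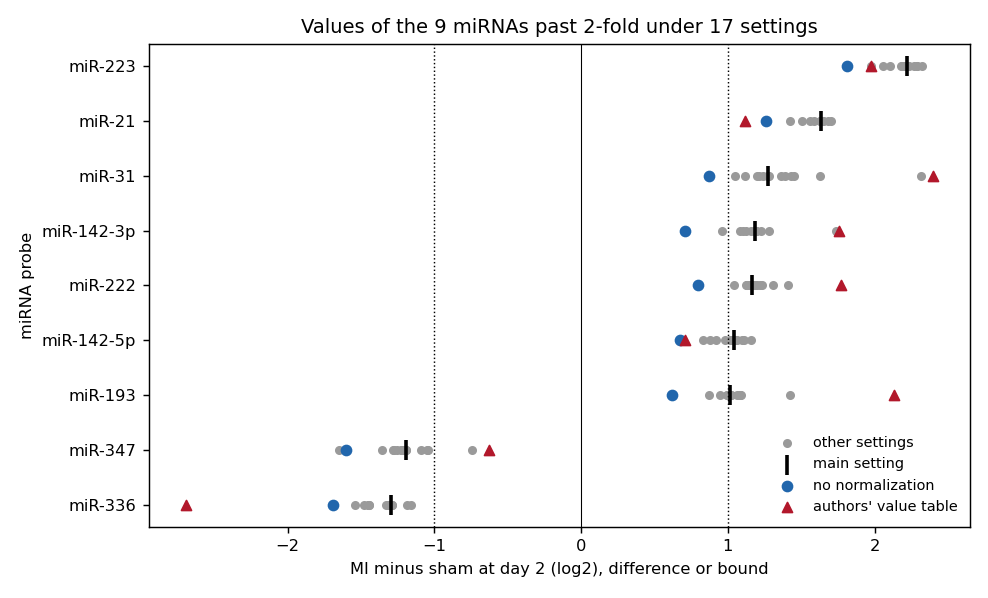
Log2 difference or bound of the 9 miRNAs past 2-fold in the main setting (black bars) and in 16 alternative settings (grey, blue for no normalization, red for the authors' value table). Dotted lines mark 2-fold and the solid line 0. No value crosses 0, and miR-223, miR-21 and miR-336 keep past 2-fold throughout.

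The day 14 arrays were made with 500 ng of RNA on a later array version, so only each day's own difference is given. There 27 of 223 miRNAs with a value were at least 2-fold higher in MI (12.1%) and 8 lower (3.59%). Of the 124 miRNAs with a value on both days, 96 were above 0 at day 14 and 23 were at least 2-fold higher. All 7 miRNAs higher at day 2 were among these 23. Their day 14 values were 1.71 for miR-223, 3.45 for miR-21, at least 4.09 for miR-31, 1.27 for miR-142-3p, at least 1.48 for miR-142-5p, at least 2.28 for miR-222 and 2.14 for miR-193. miR-336 was at -0.15 and miR-347 had a bound of 0.37. The difference between days was not tested.

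**Figure D5:**
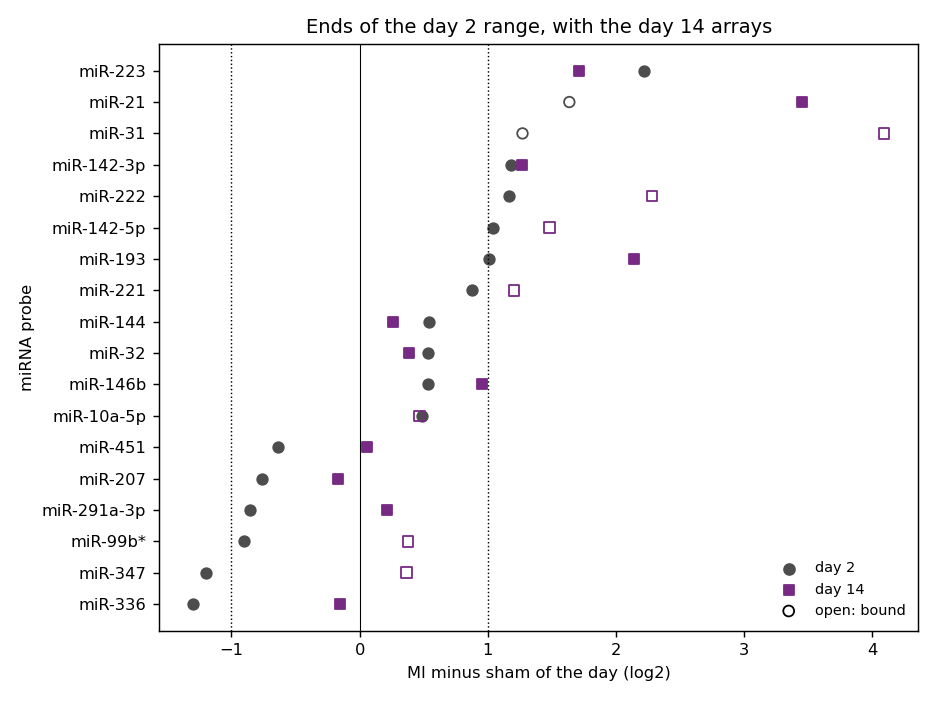
Log2 difference (MI minus sham) at day 2 (grey circles) and day 14 (purple squares) for the highest and lowest miRNAs of day 2 that had a value on both days, with open symbols for bounds and dotted lines at 2-fold. The 7 miRNAs past 2-fold higher at day 2 are past it at day 14 too, and miR-336 and miR-347 lie within 2-fold at day 14.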

How the data were processed

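The deposited scanner files give each spot's intensity and local background, quantified with Mapix 4.5.0, per the file headers; the 532 nm channel holds Hy3. The authors also deposited a table of log2 values, for which no processing steps are recorded in these sources. Against the scanner values its Spearman correlation was 0.961 in sham (164 rat probes) and 0.999 in MI (194), with slopes of 1.18 and 1.29 and column medians of 6.36 for both, so its scale and centring stay unknown; it served as an alternative. Groups come from the sample titles and treatment labels. With limma 3.58.1 in R 4.3.3, median foreground was corrected for median background (normexp, offset 50, all spots of blocks 1 to 36), quantile normalized with control spots left out, and averaged over 3 spots. Rat probes that either array detected were counted when past 2-fold, as a difference or a bound: brighter mean against the higher of the dim mean and the lowest detected level of the dim array. A bound at or under 1-fold gave no fold. Named are all miRNAs past 2-fold, the 10 highest and 10 lowest, the largest bounds, saturated ones and members of lists. Members and lists were chosen with earlier results of these data known. The calculation was tested on simulated data. Probes of near-identical miRNAs may share signal. The number of arrays limits the precision.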

Additional observations from a re-analysis of the deposited data

Results flagged for a closer look

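For 11 miRNAs the day 2 and day 14 differences lay on opposite sides of 0, with at least one of them past 2-fold. Of the 124 miRNAs with a value on both days, 96 were above 0 at day 14, whereas 95 of the 147 measured at day 2 were below 0. Opposite sides were thus common among all miRNAs, and the change of side alone does not set these 11 apart. Each day had 1 pool per group, and the difference between days was not tested. Lower at day 2 and higher at day 14 were miR-125b-5p (a bound of -0.29, then 1.43), miR-140* (-0.25, then 2.31), miR-152 (-0.42, then 1.55), miR-195 (-0.073, then 1.40), miR-199a-3p (-0.10, then 2.10), miR-199a-5p (-0.18, then 3.46), miR-301a (-0.12, then 1.24), miR-335 (-0.43, then 1.42) and miR-542-3p (-0.24, then 1.01). Over the alternatives miR-195, miR-199a-3p, miR-199a-5p and miR-542-3p were above 0 at day 2 in 2 of 16 each. They reached up to 0.67, 0.052, 0.78 and 1.45. In the authors' value table miR-301a was at 2.12. Values under the alternatives are otherwise not given for miR-301a, and not at all for miR-152 and miR-335. miR-347 went from -1.20 to a bound of 0.37. miR-150, of mature lymphocytes, was the one with the opposite order, at 0.33 on day 2 (below 0 in 1 of 16 alternatives) and -1.71 on day 14. Of these 11, miR-347 alone was past 2-fold at day 2, and among those below 0 at day 2 the values of miR-195, miR-199a-3p and miR-301a lay at or above the median of all rat miRNAs.

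Outside the rat probes, 329 of 1270 probes with human or mouse names had a fold or a bound at day 2, of which 2 were at least 2-fold higher and 5 lower. The higher ones were hsa-miR-936, at 1.08 (spot SE 0.13), and hsa-miRPlus-E1246, at 1.09 (spot SE 0.16). Both carry human names, and which rat RNA they bound was not tested.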

How the results depend on the processing

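Of 1718 values of 109 named miRNAs under 16 alternatives, 1432 moved by less than the spot spread and 286 by more, and none of the 9 past 2-fold in the main setting turned its direction. In the authors' value table miR-542-3p was at 1.45 and miR-382 at -1.15, against -0.24 and 0.10. The count of higher miRNAs was 2 without normalization, 4 with centred arrays and 25 in the authors' value table. The count of lower ones was 10 without normalization, 5 with centred arrays, 9 with local background subtracted and 19 in the authors' value table. The median of all was -0.56 without normalization, -0.32 with centred arrays and 0.083 with all 48 blocks. The causes were not tested. The value table has a wider log2 scale, with slopes of 1.18 in sham and 1.29 in MI against the scanner values. Whether this accounts for its counts was not tested. Leaving out each spot set in turn gave 5 to 7 higher, 2 lower and medians from -0.13 to -0.12. The lowest number came without the third set, where miR-193 lay at 0.95 and miR-142-5p at 0.98. Quantile normalization over rat probes only was chosen after seeing the data. No paired analysis was possible because each group has 1 sample. The sham background of 307 limits what dim probes can show, and the 16-bit limit what bright ones can.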

Other observations

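Small nuclear and nucleolar RNAs on the same arrays did not move as one group. U6-snRNA-2 and U6-snRNA-1, probes for the spliceosomal U6 RNA, were at 0.63 (spot SE 0.08) and 0.48 (spot SE 0.25), and U6B-5 was at -0.22 (spot SE 0.10). The nucleolar probes hsa_SNORD3@, hsa_SNORD6 and SNORD38B-5 were at 0.50, 0.32 and 0.23, and hsa_SNORD2, hsa_SNORD12 and hsa_SNORD13 were between 0.05 and 0.08. 5SrRNA-5, for the 5S ribosomal RNA, was at -0.35 (spot SE 0.11). Probes with only a mouse name and measured on both arrays (61) had a median of 0.05, against -0.12 for those with rat and mouse names (135) and -0.16 for those with a rat name only (11).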
